A study of Mus musculus with 24 samples.

Results

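The 9 genes described here encode antiviral effectors that interferons induce: Ifit1, Ifit2 and Ifit3, Ifitm2 and Ifitm3, Bst2, Rsad2, Rtp4 and Xaf1. They were taken by name from the 31062 features of the deposited count tables, and each name matched 1 Ensembl identifier. Interferons act through paired receptor chains, JAK kinases and STAT transcription factors. Type I interferons mainly act through a complex that contains STAT2 and IRF9 and binds the interferon-stimulated response element (ISRE), whereas IFN-gamma acts mainly through gamma-activated sites (GAS). These 9 genes are best known as type I interferon targets, and many respond to IFN-gamma as well. IFIT proteins bind RNA with viral features and hold back its translation. IFITM proteins sit in membranes and hinder the fusion of enveloped viruses with the cell. BST2 (tetherin) ties budding virions to the cell surface, RSAD2 (viperin) is an iron-sulphur enzyme that makes an antiviral nucleotide, RTP4 is a membrane chaperone with antiviral activity, and XAF1 binds the caspase inhibitor XIAP and promotes cell death.

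The 24 poly-A libraries come from the ID8 p53-/- line, ovarian cancer cells of the mouse that lack p53. All groups share that p53 deletion. They combine the genotype (Ifngr1-KO, or the comparison line labelled sgNTC), the plate (regular, called adherent, or ultra-low attachment, ULA) and the treatment (recombinant mouse IFN-gamma at 100 ng/ml, or an equal volume of PBS), with 3 biological replicates in each of the 8 groups. Treatment began 24 hours after seeding, and cells were taken 24 hours later, after 48 hours in culture. Dead cells were removed from ULA cultures only, and each genotype is 1 line, so a difference between cultures also holds that step and a difference between genotypes cannot be told apart from other differences between the lines. Ifngr1, which encodes the ligand-binding receptor chain, ranged from 13.3 to 17.0 CPM (counts scaled to library size) in the Ifngr1-KO libraries and from 31.7 to 48.1 CPM in those of sgNTC. Libraries held 33494774 to 63154942 counts. Compared with the other replicates by chi-square, averaged over genes, Ifngr1-KO adherent PBS replicate 3 (21.2 and 20.9 from the others, which differed by 7.75) and Ifngr1-KO ULA IFN-gamma replicate 2 (21.9 and 27.5, against 7.94) stood apart. The numbers of called members were the same without them, except that the Ifitm3 and Bst2 interactions named below were lost without the former.

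The 3 Ifit genes lie on the plus strand of GRCm38 chromosome 19, in the order Ifit2, Ifit3 and Ifit1. Ifit2 (ENSMUSG00000045932) spans chr19:34550694-34576419, Ifit3 (ENSMUSG00000074896) chr19:34583531-34588731 and Ifit1 (ENSMUSG00000034459) chr19:34640871-34650009. Ifitm2 (ENSMUSG00000060591, chr7:140954837-140955987) and Ifitm3 (ENSMUSG00000025492, chr7:141009586-141010770) both lie on the minus strand of chromosome 7. The others are scattered: Bst2 (ENSMUSG00000046718, chr8:71534255-71537456, minus), Xaf1 (ENSMUSG00000040483, chr11:72301629-72313733, plus), Rsad2 (ENSMUSG00000020641, chr12:26442746-26456452, minus) and Rtp4 (ENSMUSG00000033355, chr16:23520291-23614222, plus). Values are sums over all annotated exons. Reads that fit several places were not counted, so members with close copies are measured on part of their length. Of all stretches of 50 bases in its exons, Ifit3 shares 51.2% with Ifit3b, and Ifitm2 shares 48.5% with other genes, 36.1% with Gm45717. Gm45717 is annotated at the same place and strand and overlaps 268 of the 655 exon bases of Ifitm2. The stretches shared with it therefore need not be a copy elsewhere. The shared part was 11.6% for Rtp4, 10.02% for Ifitm3, 7.13% for Ifit1 and 1.61% for Xaf1, and it was 0 for Ifit2, Bst2 and Rsad2. Levels of Ifit3 and Ifitm2 are therefore less certain than those of the other members.

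Promoter sequence from RefSeq (GRCm38.p6) was matched for 8 members and is shown because the members moved together across the groups. The search covered 250 bases upstream of each start for GAAANNGAAA, an ISRE core, on either strand (TTTCNNTTTC on the other), and for the GAS pattern TTCNNNGAA, which reads the same on both strands. The 6 stretches below, of 130 bases each, lie upstream of the start and run 5′ to 3′ on the strand of the gene, with ISRE matches in capitals.
Ifit1, chr19:34640729-34640858, plus strand: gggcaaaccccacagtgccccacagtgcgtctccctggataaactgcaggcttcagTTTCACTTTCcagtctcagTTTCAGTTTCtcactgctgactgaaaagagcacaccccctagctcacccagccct
Ifit3, chr19:34583369-34583498, plus strand: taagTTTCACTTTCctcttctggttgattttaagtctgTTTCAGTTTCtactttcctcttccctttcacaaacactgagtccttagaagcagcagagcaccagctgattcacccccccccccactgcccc
Ifit2, chr19:34550534-34550663, plus strand: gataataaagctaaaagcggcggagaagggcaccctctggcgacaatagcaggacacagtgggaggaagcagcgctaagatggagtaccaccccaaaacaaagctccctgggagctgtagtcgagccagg
Ifitm2, chr7:140955992-140956121, minus strand: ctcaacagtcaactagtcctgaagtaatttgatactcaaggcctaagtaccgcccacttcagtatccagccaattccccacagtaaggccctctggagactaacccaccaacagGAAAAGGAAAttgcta
Bst2, chr8:71537503-71537632, minus strand: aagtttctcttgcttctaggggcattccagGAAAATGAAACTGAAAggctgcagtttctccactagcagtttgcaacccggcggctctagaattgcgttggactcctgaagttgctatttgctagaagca
Rsad2, chr12:26456483-26456612, minus strand: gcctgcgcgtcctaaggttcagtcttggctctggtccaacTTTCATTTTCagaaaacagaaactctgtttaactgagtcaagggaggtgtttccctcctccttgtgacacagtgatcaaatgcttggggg
Ifit1 and Ifit3 each held the same pair of ISRE letters, TTTCACTTTC and then TTTCAGTTTC, beginning at -104 and -85 from the start in Ifit1 and at -156 and -122 in Ifit3. Bst2 held a pair of matches that overlap, from -130 to -115, and Rsad2 and Ifitm2 held 1 each. In all, 5 of the 9 upstream windows of the members (Ifit2 has a pair of windows) held the ISRE core, against 2.98% of 32851 mouse promoter windows of the same length. The GAS pattern was found in 2 of the 9 windows, against 7.02% of all. It began at -241 in Ifit2 and at -136 in Bst2, where it overlaps the first ISRE match. Neither Xaf1 nor Ifitm3 held a match to either pattern upstream of the start, although just after it Ifitm3 held ISRE cores beginning at bases 2 and 19 and a GAS pattern at base 13. A match is a description of the letters and not a measured binding site.

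Per length, Ifitm2, Ifitm3 and Bst2 had the most RNA of the 9 in adherent sgNTC cells on PBS and in ULA sgNTC cells on IFN-gamma. In CPM per kilobase of exon (RPKM), Ifitm2 (20.5 ± 0.544, SD, n = 3) and Ifitm3 (12.2 ± 1.4) were the most abundant members in adherent sgNTC cells on PBS. Bst2 followed at 4.38 ± 0.556, and the other 6 lay between 0.279 ± 0.15 for Ifit3 and 1.19 ± 0.143 for Ifit2. RPKM divides by the full exon length, including the parts that Ifit3 and Ifitm2 share with other genes. Their RPKM can therefore be too low, and the rank of Ifit3 among these 6 is uncertain. In ULA sgNTC cells on IFN-gamma, the setting with the highest mean for 8 members, Ifitm3 reached 110.4 ± 8.96 RPKM, Ifitm2 40.6 ± 2.63, Bst2 29.1 ± 6.16 and Rtp4 17.3 ± 3.09. The other 5 lay between 4.47 ± 1.25 for Rsad2 and 7.93 ± 2.46 for Ifit1. Ifitm2 was the exception: its highest mean was in ULA sgNTC cells on PBS, at 44.5 ± 2.32 RPKM. From adherent PBS to ULA IFN-gamma sgNTC cells, the mean CPM of Ifit3 differed by 25.1 times, of Rtp4 by 15.7, of Xaf1 by 14.5 and of Ifit1 by 13.3 times, against 4.33 times for Ifit2 and 1.99 times for Ifitm2.

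**Figure D1:**
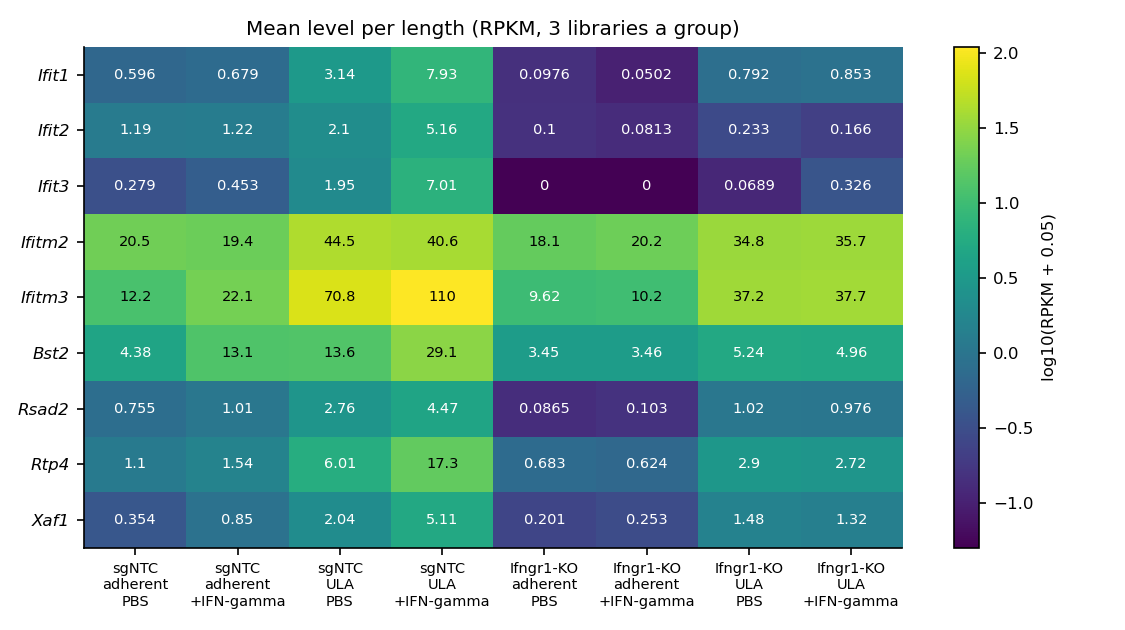
Mean level per length (RPKM, 3 libraries a group) of the 9 genes in rows and the 8 groups in columns, with colour on a log10 scale. Ifitm2 and Ifitm3 were the most abundant in each group, and Ifit3 was at 0 in both adherent Ifngr1-KO groups.

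The order of the groups was much alike among members, with the exceptions given here. The lowest mean was in 1 of the adherent Ifngr1-KO groups for all 9, and the libraries of the 2 adherent Ifngr1-KO groups overlapped in every member. Only for Ifit2 did both ULA Ifngr1-KO groups (0.653 ± 0.0904 and 0.916 ± 0.0674 CPM) lie below both adherent sgNTC groups (4.68 ± 0.563 and 4.80 ± 0.525 CPM) with no overlap. For Ifitm2, Ifitm3, Rtp4 and Xaf1 the ULA Ifngr1-KO libraries lay above all adherent sgNTC libraries instead. The 3 ULA sgNTC libraries on IFN-gamma lay above every other library for Ifit1, Ifit2, Ifit3, Ifitm3, Bst2, Rtp4 and Xaf1. For Rsad2 the lowest of them (13.2 CPM) lay among the ULA PBS libraries (9.21 to 14.1 CPM).

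**Figure D2:**
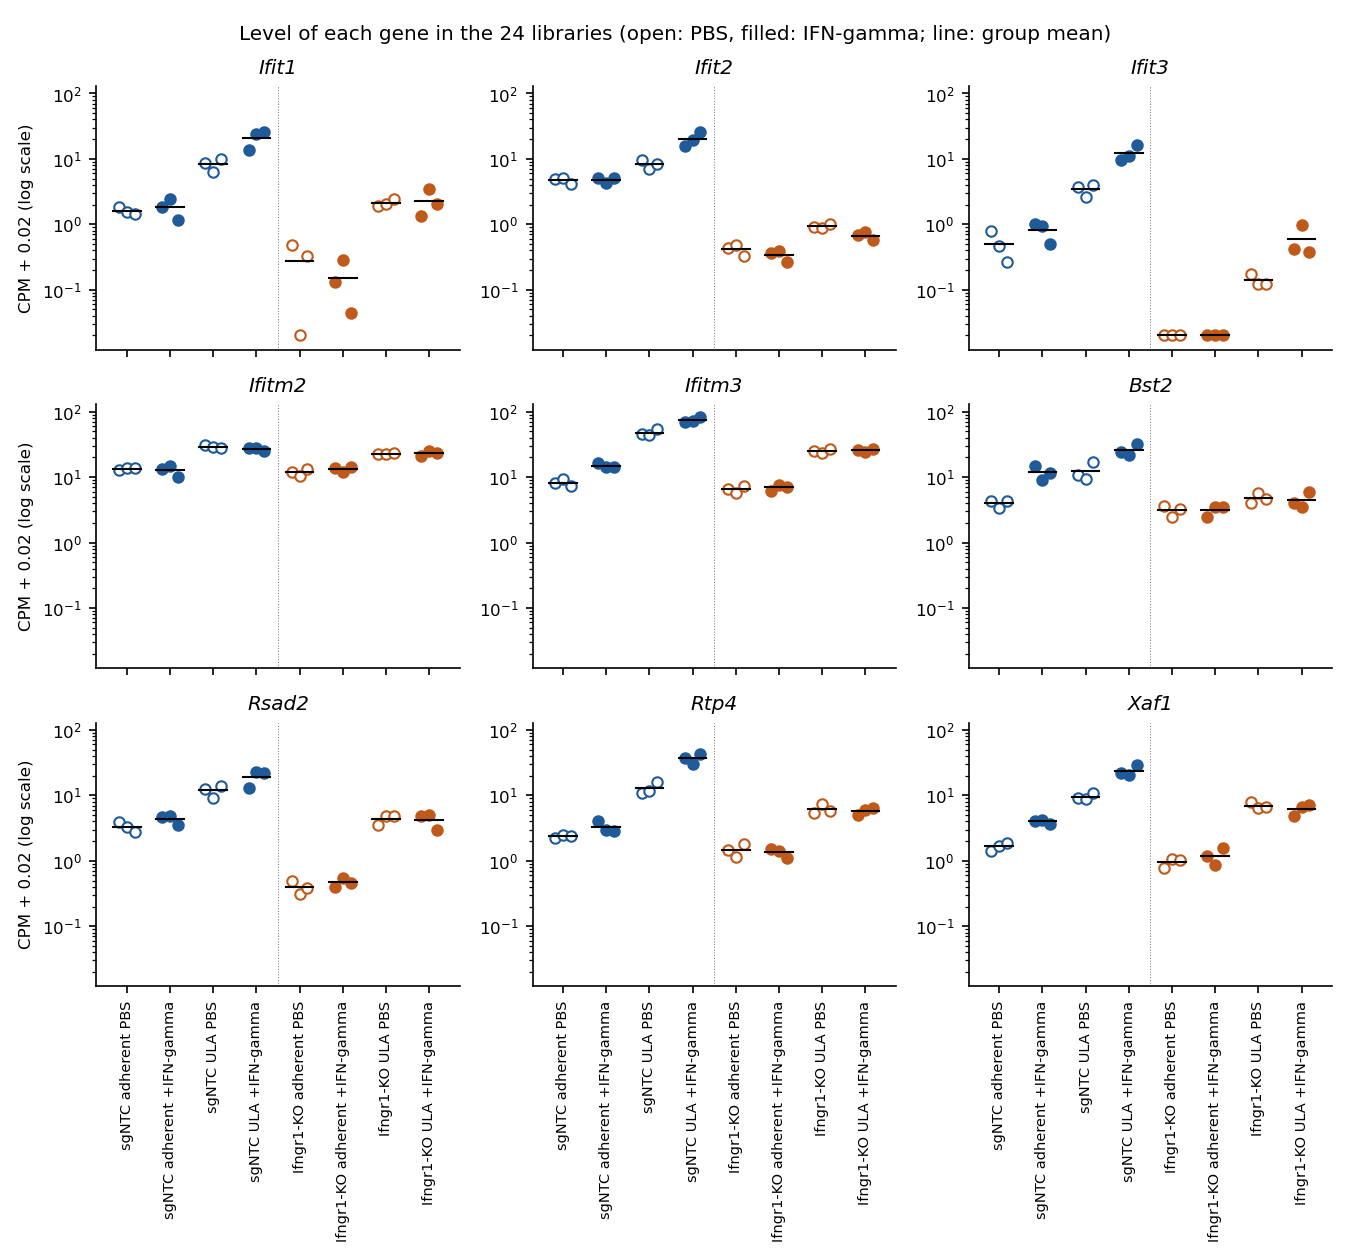
CPM of each gene in each of the 24 libraries, plotted as CPM + 0.02 on a log axis, with sgNTC in blue, Ifngr1-KO in orange, PBS open, IFN-gamma filled and a line at each group mean. The filled ULA sgNTC points top 7 of the 9 panels without overlap, and Ifit3 sits at the bottom of the axis in the 6 adherent Ifngr1-KO libraries.

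In adherent sgNTC cells, IFN-gamma raised 3 of the 9 members, Ifitm3, Bst2 and Xaf1, while the 3 Ifit genes, Ifitm2, Rsad2 and Rtp4 did not pass the test. All tests below are quasi-likelihood tests in edgeR, adjusted by Benjamini-Hochberg over the 14622 genes tested, errors of log2 fold changes are SE, and a gene counts as changed at an adjusted p under 0.05. Over all genes tested, 0.294% were called higher and 0.0205% lower. In bulk RNA, a response in a share of the cells and a smaller response in all of them cannot be told apart. Ifitm3 stood at 8.20, 9.23 and 7.33 CPM on PBS and at 16.2, 14.3 and 14.5 CPM on IFN-gamma, a log2 fold change of 0.86 ± 0.10 (adjusted p = 1.98e-05). The groups did not overlap, and the lowest treated library lay well above the highest on PBS. Bst2 stood at 4.23, 3.38 and 4.26 CPM on PBS and at 14.7, 9.15 and 11.7 CPM on IFN-gamma (log2 fold change 1.58 ± 0.25, adjusted p = 0.00189). This 3.00-fold rise was the steepest of the 9 in this setting. Xaf1 stood at 1.42, 1.69 and 1.87 CPM against 4.09, 4.22 and 3.64 CPM (1.28 ± 0.20, adjusted p = 0.000333). Its treated libraries were close together and all above those on PBS.

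The members that did not pass in adherent sgNTC cells differed in how precisely they were measured. Ifit2 stood at 4.88, 5.12 and 4.05 CPM on PBS and at 5.12, 4.19 and 5.08 CPM on IFN-gamma, and the 95% interval of its log2 fold change ran from -0.32 to 0.39. Those groups overlapped fully. Ifitm2 had an interval from -0.30 to 0.15, with 13.0, 13.5 and 13.7 CPM on PBS and 13.3, 14.8 and 9.92 CPM on IFN-gamma. Rtp4 stood at 2.22, 2.48 and 2.36 CPM against 4.004, 2.97 and 2.86 CPM, without overlap (0.49 ± 0.20, unadjusted p = 0.0179, adjusted p = 0.555). Rsad2 had a log2 fold change of 0.40 ± 0.22 (interval -0.05 to 0.86), with groups that overlapped. The low counts of Ifit1 (38 to 96 per library) and Ifit3 (8 to 43 per library) left wide intervals, from -0.76 to 1.12 for Ifit1 and from -0.17 to 1.45 for Ifit3. The median log2 fold change was 0.49 over the 9 members and 0.00 over all genes tested.

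In ULA sgNTC cells, IFN-gamma raised 6 of the 9 members, Ifit2, Ifit3, Ifitm3, Bst2, Rtp4 and Xaf1. Over all genes tested, 1.31% were called higher and 0.739% lower, and the medians were 1.29 for the members and 0.00 for all genes. Among the genes for RNA-binding IFIT proteins, Ifit2 stood at 9.47, 6.88 and 8.44 CPM on PBS and at 15.7, 19.5 and 25.6 CPM on IFN-gamma (1.29 ± 0.16, adjusted p = 1.75e-06). Ifit3 stood at 3.66, 2.61 and 3.92 CPM against 9.71, 10.9 and 16.1 CPM (1.85 ± 0.29, adjusted p = 0.000198). Neither gene had overlapping groups, and the 3.60-fold difference of Ifit3 was the widest of the members here. Ifit1 stood at 8.76, 6.30 and 9.96 CPM against 13.6, 23.7 and 25.9 CPM, also without overlap, but missed the threshold (1.34 ± 0.35, adjusted p = 0.0589). It passed without the lowest treated library, sgNTC ULA IFN-gamma replicate 1 (adjusted p = 0.0275), and with counts halved (adjusted p = 0.00945).

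Among the other effectors in ULA sgNTC cells, Rtp4 stood at 10.7, 11.7 and 16.1 CPM on PBS and at 36.8, 30.3 and 43.4 CPM on IFN-gamma (1.53 ± 0.15, adjusted p = 8.25e-08). The lowest treated library lay well above the highest on PBS. Xaf1 stood at 9.13, 8.85 and 10.7 CPM against 22.3, 20.4 and 29.2 CPM (1.33 ± 0.16, adjusted p = 7.31e-07). Ifitm3 stood at 45.9, 44.3 and 53.9 CPM against 70.1, 72.8 and 81.7 CPM (0.64 ± 0.09, adjusted p = 1.24e-05). Both groups were clear of each other in these genes, although Ifitm3 moved by 1.56-fold only. Bst2 stood at 10.6, 9.41 and 16.8 CPM against 24.6, 21.7 and 32.4 CPM (1.10 ± 0.22, adjusted p = 0.00833). Its call was lost without sgNTC ULA PBS replicate 2 (adjusted p = 0.0750) and with the compared groups only (adjusted p = 0.179). Rsad2 stood at 12.6, 9.21 and 14.1 CPM against 13.2, 23.0 and 21.9 CPM, with overlap, and did not pass (0.70 ± 0.19, adjusted p = 0.0565). Without sgNTC ULA IFN-gamma replicate 1, which was low for Rsad2 as for Ifit1, its adjusted p was 0.00611, and it also passed with counts halved (adjusted p = 0.0293) or library totals in place of TMM (adjusted p = 0.0442). Ifitm2 stood at 30.8, 28.7 and 27.9 CPM against 27.7, 27.5 and 24.6 CPM (-0.13 ± 0.10, interval -0.34 to 0.08).

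**Figure D3:**
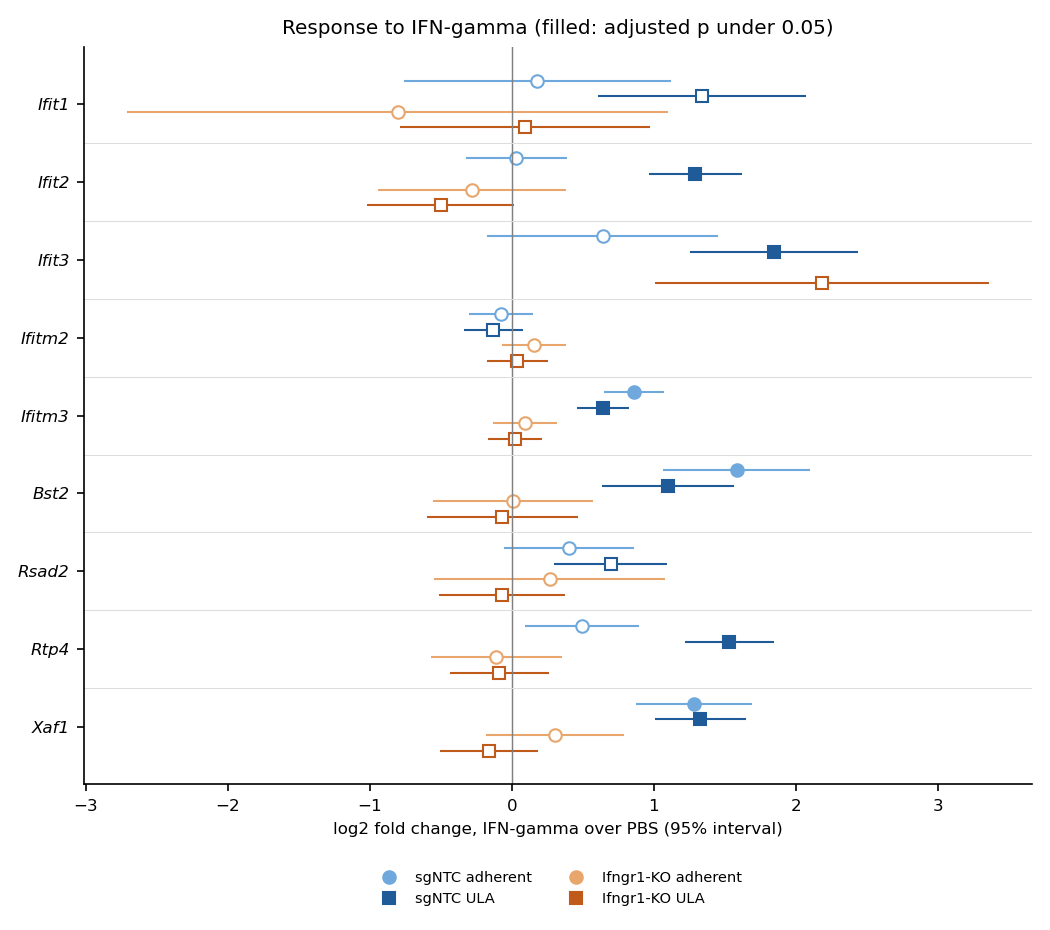
Log2 fold change of IFN-gamma over PBS with its 95% interval for each gene in the 4 settings, filled where the adjusted p was under 0.05. Filled points are found in sgNTC cells only, 3 in adherent and 6 in ULA culture, and Ifit3 has no point in adherent Ifngr1-KO cells, where it had no count.

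Ifit2 was the member whose response to IFN-gamma differed between the cultures of sgNTC cells by the test of that difference. Its log2 fold change was 1.26 ± 0.24 larger in ULA than in adherent cells (adjusted p = 0.0249), and it was the 1 member called among the 0.0479% of all genes called higher (0% were called lower). The call did not survive leaving out 1 of 7 libraries, with adjusted p-values of 0.0644 to 0.230: adherent PBS replicates 1 and 2, adherent IFN-gamma replicates 2 and 3, ULA PBS replicates 2 and 3 and ULA IFN-gamma replicate 3. It was also lost with the compared groups only (adjusted p = 0.0753). Rtp4 (1.04 ± 0.25, unadjusted p = 0.000248, adjusted p = 0.330), Ifit3 (1.21 ± 0.49, adjusted p = 0.867) and Ifit1 (1.16 ± 0.57, adjusted p = 0.930) had differences of like size that did not pass. For the genes that responded in both cultures the differences were small or negative: Xaf1 at 0.05 ± 0.26, Ifitm3 at -0.22 ± 0.14 and Bst2 at -0.48 ± 0.34. Their intervals ran from -0.47 to 0.57, from -0.50 to 0.06 and from -1.18 to 0.21.

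In Ifngr1-KO cells no member was called for IFN-gamma in either culture. In adherent cells 0.00684% of all genes were called higher and 0% lower, and in ULA cells 0% were called in each direction. DESeq2 also called 0 members in both cultures. At an unadjusted p under 0.05 there were 0 members and 1215 of all genes in adherent cells, and 1 member and 1103 of all genes in ULA cells. Ifitm3, which with Ifitm2 was measured with the smallest errors, stood at 6.58, 5.68 and 7.32 CPM on PBS and at 6.18, 7.56 and 7.10 CPM on IFN-gamma in adherent cells. In ULA cells it stood at 25.2, 23.7 and 26.6 against 25.6, 24.5 and 26.6 CPM (0.02 ± 0.09, interval -0.17 to 0.21). The groups overlapped in both cultures. Bst2, with 3.60, 2.45 and 3.29 CPM against 2.40, 3.45 and 3.52 CPM in adherent cells, had an interval from -0.56 to 0.57. Xaf1 in ULA cells stood at 7.77, 6.41 and 6.60 against 4.77, 6.74 and 7.06 CPM (-0.16 ± 0.17).

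Ifit3 was the member with an unadjusted p under 0.05 in ULA Ifngr1-KO cells. Its counts were 6, 4 and 4 on PBS and 17, 36 and 18 on IFN-gamma, or 0.157, 0.102 and 0.102 CPM against 0.406, 0.944 and 0.357 CPM. The groups did not overlap, and the highest value came from replicate 2, the library that stood apart. The log2 fold change was 2.19 ± 0.57 (unadjusted p = 0.00025, adjusted p = 0.475), and 1.64 without that replicate (adjusted p = 0.271). In edgeR with no filter on low counts Ifit3 passed (adjusted p = 0.00209). DESeq2, also fitted without that filter, did not call it. The treated level, 0.569 ± 0.326 CPM, was 21.5 times below the 12.2 ± 3.37 CPM of ULA sgNTC cells on IFN-gamma.

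The difference between the lines in the IFN-gamma response was called for 4 members in ULA culture and for 1 in adherent culture. In ULA culture 0.54% of all genes were called higher and 0.793% lower. The Ifngr1-KO response was lower by 1.79 ± 0.30 on the log2 scale for Ifit2 (adjusted p = 0.000712), by 1.62 ± 0.23 for Rtp4 (adjusted p = 9.41e-05), by 1.49 ± 0.23 for Xaf1 (adjusted p = 0.000256) and by 0.62 ± 0.13 for Ifitm3 (adjusted p = 0.00902). Bst2 (-1.17 ± 0.34, adjusted p = 0.0888), Rsad2 (-0.77 ± 0.29, adjusted p = 0.199) and Ifit1 (-1.24 ± 0.55, adjusted p = 0.307) pointed the same way without passing. Bst2 passed without Ifngr1-KO ULA IFN-gamma replicate 3 (adjusted p = 0.0338) or sgNTC ULA PBS replicate 3 (adjusted p = 0.0158), with the replicate block (adjusted p = 0.0213) and by DESeq2 (adjusted p = 0.0170). For Ifit3 no such difference was called (0.34 ± 0.64, interval -0.98 to 1.65). Its summed counts were 534 on PBS and 1485 on IFN-gamma in sgNTC cells. In Ifngr1-KO cells they were few, 14 and 71, and that rise was not called.

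In adherent culture 0.0342% of all genes were called higher and 0.0957% lower in the Ifngr1-KO response, and the member called was Ifitm3 (-0.77 ± 0.15, adjusted p = 0.0233). It was lost without 1 of 5 libraries, with adjusted p-values of 0.0588 to 0.0996: sgNTC adherent PBS replicates 1 and 3, sgNTC adherent IFN-gamma replicate 1, Ifngr1-KO adherent PBS replicate 3 and Ifngr1-KO adherent IFN-gamma replicate 1. It was also lost with the compared groups only (adjusted p = 0.0827) and with counts halved (adjusted p = 0.0519). Bst2 (-1.58 ± 0.37, unadjusted p = 0.000321, adjusted p = 0.107) and Xaf1 (-0.98 ± 0.31, adjusted p = 0.196), which had risen in adherent sgNTC cells, did not pass this test. Bst2 passed it with the replicate block (adjusted p = 0.0195), by DESeq2 (adjusted p = 0.00178) and with the compared groups only (adjusted p = 0.00578).

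Detachment was accompanied by more RNA of the members even without IFN-gamma. In sgNTC cells on PBS all 9 were higher in ULA than in adherent culture, where 32.5% of all genes were called higher and 32.1% lower. The members' median log2 fold change was 2.38, against 0.03 over all genes. Among the IFITM genes, Ifitm3 (8.20, 9.23 and 7.33 CPM adherent, 45.9, 44.3 and 53.9 CPM in ULA) rose 5.81-fold (2.54 ± 0.10, adjusted p = 1.63e-21). Ifitm2 (13.0, 13.5 and 13.7 against 30.8, 28.7 and 27.9 CPM) rose 2.18-fold (1.12 ± 0.11, adjusted p = 2.65e-11). Both were well clear of the spread between libraries. Of the IFIT genes, Ifit3 rose most (2.72 ± 0.36, adjusted p = 7.48e-08), then Ifit1 (2.38 ± 0.41, adjusted p = 3.64e-05), and Ifit2 rose 1.76-fold (0.82 ± 0.17, adjusted p = 7.45e-05), the smallest rise of the 9. Rtp4 (2.44 ± 0.18), Xaf1 (2.54 ± 0.19), Rsad2 (1.85 ± 0.21) and Bst2 (1.62 ± 0.25) rose with adjusted p-values of 5.28e-14 to 4.79e-06. In none of the 9 did a ULA library on PBS lie within the adherent PBS range. ULA sgNTC libraries on PBS also lay above adherent sgNTC libraries on IFN-gamma for each member except Bst2 (10.6, 9.41 and 16.8 against 14.7, 9.15 and 11.7 CPM), a contrast of both culture and treatment that was not tested.

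Detached Ifngr1-KO cells on PBS also held more of 8 members than adherent ones, with 29.6% of all genes called higher and 31.1% lower. The members' median was 2.09, against 0.00 over all genes. Rsad2, the viperin gene, stood at 0.470, 0.295 and 0.359 CPM in adherent and at 3.55, 4.83 and 4.86 CPM in ULA cells, an 11.8-fold rise (3.56 ± 0.34, adjusted p = 6.17e-12). Xaf1 stood at 0.757, 1.04 and 1.03 against 7.77, 6.41 and 6.60 CPM (2.87 ± 0.22, adjusted p = 2.71e-14). Both genes were far apart in the 2 cultures. Rtp4 rose by 2.09 ± 0.20 (adjusted p = 4.26e-11), Ifitm3 by 1.95 ± 0.10 (adjusted p = 8.25e-18), Ifit2 by 1.21 ± 0.29 (adjusted p = 0.000333) and Ifitm2 by 0.94 ± 0.11 (adjusted p = 2.51e-09). Ifit1 rose from 0.470, 0 and 0.308 CPM to 1.85, 2.04 and 2.42 CPM (3.06 ± 0.66, adjusted p = 0.00014). Ifit3 had no count in the 3 adherent PBS libraries and 14 in the ULA ones, which puts the ULA mean of 0.120 ± 0.0315 CPM at 4.86 times a floor of 3 counts over the adherent group (adjusted p = 0.00241). Each mate of a read pair was counted, so 3 counts can come from fewer pairs and this fold is not a strict bound. Bst2 was the member that did not pass (3.60, 2.45 and 3.29 against 3.94, 5.72 and 4.53 CPM, 0.61 ± 0.27, adjusted p = 0.0533). It passed without Ifngr1-KO adherent PBS replicate 1 (adjusted p = 0.0485), without Ifngr1-KO ULA PBS replicate 1 (adjusted p = 0.0397), with the replicate block (adjusted p = 0.0134), with the compared groups only (adjusted p = 0.0155) and by DESeq2 (adjusted p = 0.0181).

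The response to detachment differed between the lines for 3 members, in opposite directions, with 16.6% of all genes called higher and 11.2% lower in Ifngr1-KO cells. The number of called members was thus near the background. Rsad2 rose more in Ifngr1-KO cells, by 1.71 ± 0.40 on the log2 scale (adjusted p = 0.000995). Ifitm3 rose less there (-0.59 ± 0.14, adjusted p = 0.00212), and so did Bst2 (-1.01 ± 0.36, adjusted p = 0.0412). The Bst2 call was lost without 1 of 8 of the 12 libraries compared, with adjusted p-values of 0.0559 to 0.110: each of the 3 sgNTC adherent PBS replicates, sgNTC ULA PBS replicate 3, Ifngr1-KO adherent PBS replicates 1 and 3 and Ifngr1-KO ULA PBS replicates 1 and 3. It was lost with counts halved too (adjusted p = 0.0705). For Ifit1, Ifit2, Ifitm2, Rtp4 and Xaf1 the differences lay between -0.35 and 0.68 and did not pass. Ifit3 did not pass either (adjusted p = 0.242), and the size of its difference could not be estimated because it had no count in adherent Ifngr1-KO cells.

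On PBS alone, the members were lower in Ifngr1-KO than in sgNTC cells, and the size of the gap ranged widely among them. In adherent culture 7 of the 9 were lower, where 20.1% of all genes were called higher and 23.9% lower, and in ULA culture all 9 were lower, where 24.5% were called higher and 25.6% lower. The members' medians were -0.79 and -1.37, against -0.01 and -0.02 over all genes. Ifit2 had the most precisely measured large gap. In adherent culture it stood at 4.88, 5.12 and 4.05 CPM in sgNTC and at 0.418, 0.454 and 0.308 CPM in Ifngr1-KO cells, 11.8-fold lower (-3.56 ± 0.26, adjusted p = 1.45e-14). In ULA culture it stood at 9.47, 6.88 and 8.44 against 0.887, 0.868 and 0.993 CPM (-3.17 ± 0.21, adjusted p = 4.66e-15). No library of either line came near the range of the other.

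Ifit3 and Ifit1 were also lower, Ifit3 with a wider and Ifit1 with a smaller gap than Ifit2. Ifit3 was counted in all 3 adherent sgNTC libraries on PBS (41, 16 and 8 counts) and had 0 counts in the 6 adherent Ifngr1-KO libraries. The sgNTC mean of 0.487 ± 0.261 CPM is 19.7 times a floor of 3 counts over the adherent Ifngr1-KO PBS group (adjusted p = 1.44e-06). In ULA culture Ifit3 differed by -4.79 ± 0.54 (3.66, 2.61 and 3.92 CPM against 0.157, 0.102 and 0.102 CPM, adjusted p = 2.59e-10). Ifit3 thus had no count in adherent Ifngr1-KO cells and was counted in detached ones. Ifit1 differed by -2.67 ± 0.67 in adherent (adjusted p = 0.00131) and by -1.98 ± 0.39 in ULA culture (adjusted p = 0.000309).

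Outside the Ifit cluster, Rsad2 had the widest gap, 3.86, 3.24 and 2.73 CPM against 0.470, 0.295 and 0.359 CPM in adherent culture (8.83-fold lower, -3.14 ± 0.34, adjusted p = 6.51e-10) and -1.44 ± 0.21 in ULA culture (adjusted p = 8.11e-07). Bst2 showed the reverse order: it did not pass in adherent cells (-0.35 ± 0.27, adjusted p = 0.310) and was 2.58-fold lower in ULA cells (10.6, 9.41 and 16.8 against 3.94, 5.72 and 4.53 CPM, -1.37 ± 0.24, adjusted p = 6.09e-05). The 2 lines overlapped for Bst2 in adherent and not in ULA culture. Ifitm3 differed by -0.34 ± 0.11 in adherent (adjusted p = 0.0114) and by -0.93 ± 0.09 in ULA culture (adjusted p = 2.47e-10), and Rtp4 by -0.69 ± 0.22 (adjusted p = 0.00965) and -1.05 ± 0.16 (adjusted p = 2.41e-06). Xaf1 differed by -0.79 ± 0.24 in adherent (adjusted p = 0.00619) and by -0.46 ± 0.16 in ULA culture (adjusted p = 0.0188). Ifitm2 had the smallest gap in both cultures, at -0.18 ± 0.11 in adherent (adjusted p = 0.206) and -0.36 ± 0.10 in ULA culture (adjusted p = 0.00453). Several of the small gaps turned on single libraries. Without Ifngr1-KO adherent PBS replicate 2 the adherent calls of Ifitm3 (adjusted p = 0.0965) and Rtp4 (adjusted p = 0.0736) were lost, and without sgNTC adherent PBS replicate 2 that of Ifitm3 (adjusted p = 0.0817). The ULA call of Xaf1 was lost without Ifngr1-KO ULA PBS replicate 2 (adjusted p = 0.0745) or 3 (adjusted p = 0.0628), or sgNTC ULA PBS replicate 3 (adjusted p = 0.133). When the model was fitted to the compared groups only, Ifitm3, Rtp4 and Xaf1 lost their adherent calls, which left 4 of 9.

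**Figure D4:**
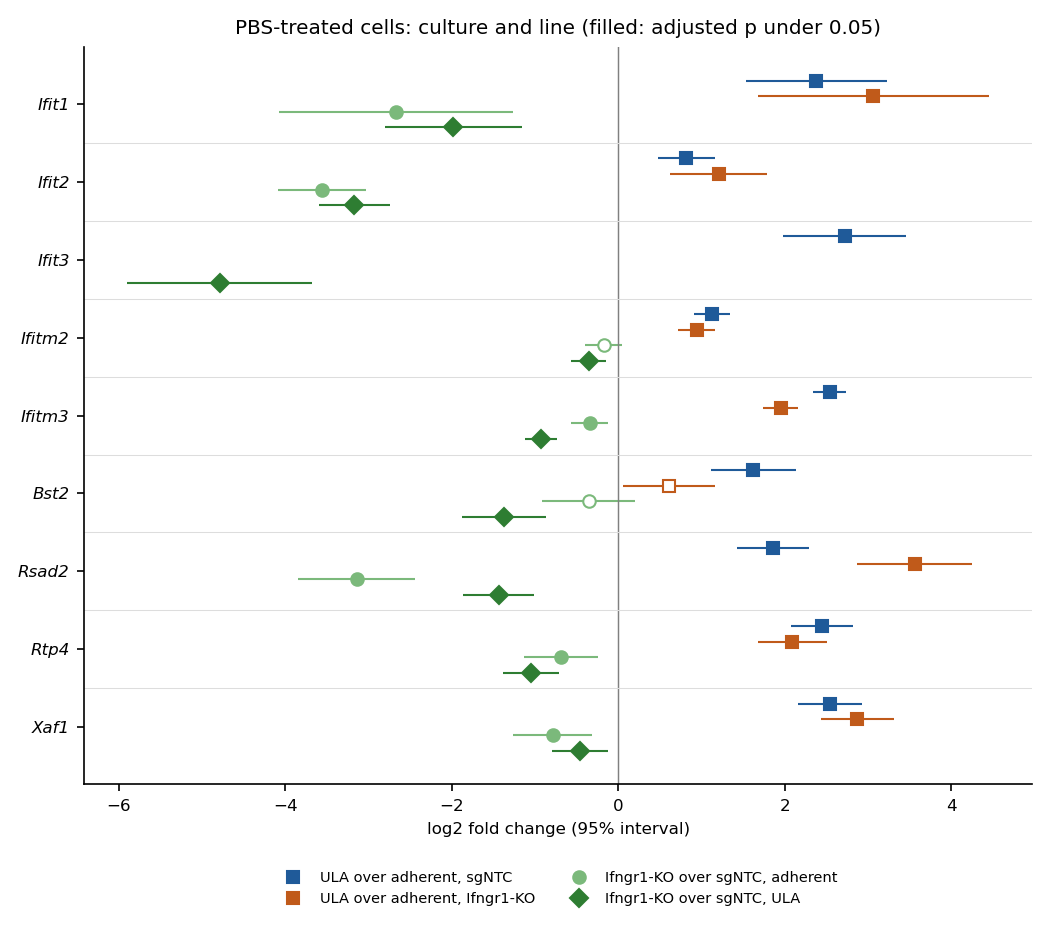
Log2 fold changes with 95% intervals in PBS-treated cells for ULA over adherent culture in each line (squares) and for Ifngr1-KO over sgNTC in each culture (circles and diamonds), filled where the adjusted p was under 0.05. All squares lie right of 0 and all circles and diamonds left of it, and Ifit3 lacks a point in the comparisons with adherent Ifngr1-KO cells, where it had no count.

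The close relatives of the members were mostly too low to test. Of 11 relatives in the IFIT, IFITM and RTP families, 4 passed the filter: Ifit1bl1, Ifit3b, Ifitm1 and Ifitm10. For IFN-gamma edgeR called 0 of them in each of the 4 settings. Over the 14622 genes tested it called 46 and 300 in adherent and ULA sgNTC cells, and 1 and 0 in Ifngr1-KO cells. A count of 0 of 4 was thus near the background. The smallest unadjusted p was that of Ifit1bl1 in ULA sgNTC cells (1.55 ± 0.48, adjusted p = 0.101), the 1 value under 0.05 before adjustment. DESeq2 also called 0. Ifitm1, another gene for an IFITM membrane protein, rose on detachment from 1.19 to 20.3 CPM in sgNTC cells (4.09 ± 0.22, adjusted p = 7.06e-18) and from 0.372 to 5.07 CPM in Ifngr1-KO cells (3.74 ± 0.31, adjusted p = 3.02e-14). It thus followed Ifitm3 in culture but stood at 21.7 CPM on IFN-gamma in ULA sgNTC cells, against 20.3 CPM on PBS (0.10 ± 0.17). Ifit3b, the near copy of Ifit3, rose on detachment in sgNTC cells (0.0986 to 1.77 CPM, 4.13 ± 0.88, adjusted p = 7.25e-05), and had 10 and 4 counts in the adherent Ifngr1-KO groups in which Ifit3 had none. In Ifngr1-KO cells Ifit3b did not pass on detachment (-0.46 ± 1.25, adjusted p = 0.768), and its response differed between the lines (-4.59 ± 1.53, adjusted p = 0.0240). Ifitm10 rose on detachment in Ifngr1-KO cells (1.99 ± 0.56, adjusted p = 0.00225) and did not pass in sgNTC cells (1.01 ± 0.55, adjusted p = 0.108). Ifit1bl1 rose in both lines (3.97 ± 0.71, adjusted p = 4.28e-06 in sgNTC cells). In ULA culture on PBS, Ifitm1 (-2.00 ± 0.18), Ifit3b (-4.82 ± 1.04) and Ifit1bl1 (-2.52 ± 0.57) were lower in Ifngr1-KO cells. The other relatives stood at group means of at most 0.151 CPM (Ifitm5), and Rtp3 had no count.

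Of 33 other genes known as type I interferon targets, 32 were tested. On IFN-gamma 7 of them rose in adherent and 20 in ULA sgNTC cells (0.294% and 1.31% of all genes rose), and 0 fell. In Ifngr1-KO cells edgeR and DESeq2 each called 0 in both cultures, with an unadjusted p under 0.05 for 2 in adherent and 1 in ULA cells. Of the 14622 genes tested, edgeR called 1 and 0, and 1215 and 1103 had an unadjusted p under 0.05. The list was thus not above the background there. In adherent sgNTC cells the first by adjusted p were Ifih1, an RNA sensor (0.70 ± 0.09, adjusted p = 3e-05), and Parp14 (0.97 ± 0.16, adjusted p = 0.000863). In ULA cells Parp9 (0.77 ± 0.09, adjusted p = 4.59e-07), Ddx58, which encodes the sensor RIG-I (0.72 ± 0.08), Parp14 (1.23 ± 0.13) and Herc6 (0.97 ± 0.11) led. On detachment 29 of the 32 rose in sgNTC cells and 26 in Ifngr1-KO cells, where 2 fell (32.5% and 29.6% of all genes rose). Between the lines, 18 were lower and 1 higher in adherent Ifngr1-KO cells, and 25 were lower and 1 higher in ULA ones, against 23.9% of all genes lower and 20.1% higher in adherent and 25.6% and 24.5% in ULA culture. Oas2, an oligoadenylate synthetase that activates RNase L, stood at 36.1 ± 4.64 CPM in ULA sgNTC and at 1.42 ± 0.444 CPM in ULA Ifngr1-KO cells on PBS (-4.67 ± 0.20, adjusted p = 1.27e-18). The list medians were 0.57 and 0.75 for IFN-gamma in adherent and ULA sgNTC cells and 1.89 and 1.68 for detachment in sgNTC and Ifngr1-KO cells.

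Among genes for interferon receptors and JAK-STAT signalling, Irf9 (0.78 ± 0.11, adjusted p = 9.05e-05) and Irf1 (0.65 ± 0.09, adjusted p = 0.000246), which encode transcription factors, rose on IFN-gamma in adherent sgNTC cells. In ULA sgNTC cells Irf1 (1.44 ± 0.09, adjusted p = 6.21e-11), Stat2 (1.30 ± 0.10, adjusted p = 7.41e-10) and Irf9 (1.05 ± 0.10, adjusted p = 2.97e-08) rose. In Ifngr1-KO cells edgeR and DESeq2 called 0 of the list in each culture, with 1 under an unadjusted p of 0.05 in each. That was not above the background, with 1 and 0 of 14622 genes called by edgeR and 1215 and 1103 under that unadjusted p. The responses of Stat2 (by 0.89 ± 0.14, adjusted p = 0.00753) and Irf1 (by 0.79 ± 0.13, adjusted p = 0.00753) were larger in ULA than in adherent sgNTC cells. Over all genes 0.0479% were called higher for this difference. That of Ifit2 was also called, but its call was lost without certain single libraries. With the compared groups only, 1 of all genes was called, so Stat2 and Irf1 cannot both have kept their calls. Between the lines on PBS, Stat2 was lower in Ifngr1-KO cells in adherent (-1.08 ± 0.11) and ULA culture (-1.09 ± 0.10). The chains of the type I receptor had means over the 8 groups of 77.0 to 86.7 CPM for Ifnar1 and 16.7 to 18.3 CPM for Ifnar2.

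No interferon gene passed the filter on low counts. Of 21 listed, 11 had a count in any of the 24 libraries. Ifnb1 had 8 counts and Ifng 2 counts over all libraries, Ifne had 46, and the highest value of any was 0.184 CPM for Ifnk in 1 library. Of 9 listed genes for sensing nucleic acids and inducing type I interferon, 7 were tested. On detachment 5 rose and 2 fell in sgNTC cells, and 3 rose and 1 fell in Ifngr1-KO cells. Over all genes 32.5% rose and 32.1% fell in sgNTC cells, and 29.6% and 31.1% in Ifngr1-KO cells, so the count in the latter was near the background. Tlr3, a receptor for double-stranded RNA in endosomes, rose in both (1.73 ± 0.17, adjusted p = 4.98e-11, and 1.88 ± 0.18, adjusted p = 2.85e-11). It was also the 1 of the 7 that rose on IFN-gamma in ULA sgNTC cells (0.72 ± 0.15, adjusted p = 0.00533).

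Markers of the ovarian surface epithelium and of ID8 cells were high in each library, with a summed level of 1726 to 4470 CPM, although Krt7 stood at group means of 0.0832 to 0.262 CPM. The 8 macrophage markers summed on PBS to 13.9 to 14.9 CPM in adherent and 15.1 to 16.5 CPM in ULA sgNTC libraries, and to 14.7 to 16.4 and 25.1 to 29.3 CPM in those of Ifngr1-KO. Nearly all of it was Cd14 and Cd68, while Ptprc, Adgre1, Itgam and Lyz2 had group means of at most 0.0656 CPM. Cd68 rose on detachment in sgNTC (1.06 ± 0.18, adjusted p = 5.17e-06) and Ifngr1-KO cells (1.48 ± 0.17, adjusted p = 2.7e-09), and Csf1r, at group means of at most 0.487 CPM, was called higher in both. Cd14 went the other way in sgNTC cells, where it was called lower in ULA culture (-0.35 ± 0.13, adjusted p = 0.0158). Dendritic cell markers summed to at most 0.217 CPM and lymphocyte markers to at most 0.180 CPM, with Cd3e, Cd3g, Nkg7 and Ncr1 at 0 throughout. Endothelial markers summed on PBS to 0.484 to 0.873 CPM in adherent and 2.80 to 3.65 CPM in ULA sgNTC libraries, and to 0.470 to 0.745 and 1.32 to 2.37 CPM in those of Ifngr1-KO. Fibroblast markers summed to 44.2 to 54.8 and 96.5 to 99.1 CPM in sgNTC, and to 16.6 to 18.4 and 93.7 to 98.1 CPM in Ifngr1-KO libraries. Macrophage, endothelial and fibroblast sums were thus higher in ULA culture in both lines, as the members were. Of the 4 endothelial markers only Pecam1 passed the filter on low counts, and of the 4 fibroblast markers only Dcn. Between the lines on PBS, Dcn was lower in adherent (-1.47 ± 0.11, adjusted p = 6.61e-11) and Pecam1 in ULA Ifngr1-KO cells (-0.82 ± 0.32, adjusted p = 0.0318), while Cd68 was higher in both cultures. The part of these markers in the members' differences was not tested. Erythroid markers summed to at most 1.44 CPM.

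Across the 24 libraries the members' log2 CPM values ran together, as a description of libraries that share groups. The closest pair was Ifitm3 and Xaf1 (Pearson r = 0.979), and the loosest was Ifit2 and Ifitm2 (r = 0.415). The median r of a member with the other 8 ran from 0.781 for Ifitm2 to 0.923 for Ifit1. The genes outside the 9 most like their mean pattern were AU020206 (r = 0.987), Gbp9 (0.981), Npc2 (0.979), Apol9b (0.978), Oasl2 (0.978) and Gbp3 (0.976). Of these, Gbp3 ranged from 0.0889 to 50.8 CPM and Npc2 from 269 to 526 CPM as group means, so that a like pattern was found at very different levels.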

How the data were processed

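The deposited files hold raw read counts per gene, 1 table per library. Per the file headers, the authors counted exon features with featureCounts v2.1.1 in paired-end mode, unstranded, leaving out reads that map to several places. Each mate of a pair counted separately (61.3% to 67.2% of counts from 1 to 20 were even). Per the submitters' processing notes, Trimmomatic, HISAT2, SAMtools, Subread 2.1.1 and DESeq2 were used with GRCm38 (mm10). For the others no version is given in the sources used here.

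From these counts, genes passing edgeR's filterByExpr (minimum count 10) were kept, which left 14622 genes and all 9 members. One model of the 8 group means was fitted to the 24 libraries in edgeR 4.0.16 (TMM factors of 0.958 to 1.054, robust quasi-likelihood), with 12 two-sided comparisons, each adjusted by the Benjamini-Hochberg method over all genes tested. It left 16 residual degrees of freedom and a common biological coefficient of variation of 0.0771. Log2 fold changes come from this fit, with 95% intervals. CPM values are scaled by the TMM-adjusted library size, and RPKM divides them by the exon length in the tables. A group with no count was set against a floor of 3 counts over its libraries, and intervals and floors of such values cover counting error only.

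The members, the other gene lists and the alternatives were chosen with earlier results of these data known. The text names all 9 members, up to 4 called genes of smallest adjusted p per list and comparison, the relatives and interferon genes by value, and the 6 genes most like the members' mean standardised log2 CPM (pseudocount 0.5 CPM, 12193 genes with at least 1 CPM in a group). List entries Oas1b and Mb21d1 matched no feature. One gene of the signalling list is not reported here. Alternatives were DESeq2 1.42.0, library totals in place of TMM, no filter, the compared groups only, a replicate block, counts halved, and leaving out each library. Same-numbered libraries of compared groups did not deviate together (correlations of -0.061 to 0.060), and no pair of replicates within a group was a duplicate (chi-square per gene of 5.55 or more). Replicates are biological replicates per the labels, whose spread is what the p-values measure.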

Additional observations from a re-analysis of the deposited data

Results flagged for a closer look

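The differences below passed a test of the difference itself, in edgeR with adjustment over all genes. The IFN-gamma response of Ifit2 in sgNTC cells was 1.26 larger on the log2 scale in ULA than in adherent culture. In ULA culture the IFN-gamma response of Ifngr1-KO cells differed from that of sgNTC cells by -1.79 for Ifit2, -0.62 for Ifitm3, -1.62 for Rtp4 and -1.49 for Xaf1, and in adherent culture by -0.77 for Ifitm3. The response to detachment on PBS differed between Ifngr1-KO and sgNTC cells by -0.59 for Ifitm3, -1.01 for Bst2 and 1.71 for Rsad2. Rsad2 was thus the 1 called member whose rise on detachment was larger in Ifngr1-KO cells. The number of members called for this response was near the background, as 16.6% of all genes were called higher and 11.2% lower. As given above, 3 of the listed calls were lost when certain single libraries were left out. They are that of Ifit2 between cultures, that of Ifitm3 in adherent culture and that of Bst2 on detachment.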

How the results depend on the processing

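Of the values of single members under the alternatives, 1419 kept their direction and their side of the threshold, 35 lost a call, 27 gained one and 30, called neither before nor after, changed sign. The numbers of called members moved as follows. With no filter on low counts they were 1 for IFN-gamma in ULA Ifngr1-KO cells (0 with it), 3 for the difference of the IFN-gamma response between cultures (1 with it), 2 for that between lines in adherent culture (1 with it) and 7 for that between lines in ULA culture (4 with it). With only the compared groups fitted they were 4 for Ifngr1-KO against sgNTC in adherent culture (7 with all groups) and 0 for the difference between cultures. For the difference between lines in adherent culture, DESeq2 gave 2, the replicate block 2 and halved counts 0. Leaving out 1 library gave 0 to 1 for the difference between cultures and 0 to 1 for that between lines in adherent culture. The replicate block changed no other number of called members by over 1.5 times, although Bst2 gained its call in 3 comparisons, as given above. The numbers do not pair the libraries.

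Counts over all genes depend more on the settings. For IFN-gamma in adherent sgNTC cells 46 genes were called, 83 by DESeq2, 175 without a filter and 104 with the compared groups only. In ULA sgNTC cells 300 were called (192 higher and 108 lower), 494 by DESeq2 (259 and 235) and 652 without a filter (238 and 414). In Ifngr1-KO cells 1 was called in adherent culture (26, 31 and 0 under the same alternatives) and 0 in ULA culture (1, 33 and 1). For the difference between cultures 7 were called, 63 without a filter and 1 with the compared groups only. For that between lines in adherent culture 19 were called, 146 by DESeq2, 180 without a filter, 32 with the compared groups only and 10 with halved counts, and in ULA culture 195, 501 by DESeq2 and 524 without a filter. With library totals in place of TMM the split moved to 55 higher and 151 lower (79 and 116 with TMM) for the lines' IFN-gamma response in ULA culture, and to 1706 and 2356 (2426 and 1642) for their response to detachment. The cause of these shifts was not tested. Depth limits Ifit1 and Ifit3 most, with at most 18 counts of either in each adherent Ifngr1-KO library. Ifit2 (10 to 20 counts) and Rsad2 (13 to 28 counts) were also low in those libraries.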
